A study of Ursus arctos with 12 samples.

Results

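Polyamine metabolism was described in the muscle of hibernating and active brown bears through 10 genes, ODC1, AMD1, SRM, SMS, SMOX, SAT1, PAOX, OAZ1, OAZ2 and AZIN1. They were taken by symbol from a table of 30249 genes, which held 10 of 10. Muscle RNA of 6 free-ranging brown bears (Ursus arctos), 2 to 3 years old, was sequenced from biopsies of the vastus lateralis, a thigh muscle. Each bear was sampled during winter hibernation and during its summer active period of the same year, which gave 6 winter and 6 summer libraries. The animals were wild and carried no experimental treatment, so that fasting, inactivity, lower body temperature and time of year cannot be told apart within the season comparison.

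Polyamines are small, positively charged molecules that bind nucleic acids and are needed for translation and growth. Ornithine decarboxylase, encoded by ODC1, makes putrescine. SRM and SMS then add aminopropyl groups to give spermidine and spermine, with the groups supplied by S-adenosylmethionine decarboxylase, encoded by AMD1. In the opposite direction, SAT1 acetylates spermidine and spermine, PAOX oxidizes the acetylated forms, and SMOX oxidizes spermine directly. Antizymes (OAZ1, OAZ2) bind ornithine decarboxylase and deliver it to the proteasome without ubiquitin, and the antizyme inhibitor AZIN1, a relative of ornithine decarboxylase without its activity, takes antizyme away. In skeletal muscle, polyamines are known for their link with growth.

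Between 16742406 and 32140160 reads were counted on genes per library. Genes with at least 30 reads over the 12 libraries were tested, 17290 in all, and all 10 polyamine genes passed. Levels are given as CPM, the counts relative to library size,, TMM-scaled in edgeR. The seasons were compared in a quasi-likelihood fit of edgeR that held the bear as a block. A gene was called at an adjusted p below 0.05 (Benjamini-Hochberg over all genes tested). The 8 skeletal muscle fibre markers summed to 111400 to 194200 CPM in summer and 120200 to 157500 in winter. The winter library of bear 1509 stood apart on the second principal component, at −98.63 against 6.35 to 23.1 in the other winter libraries.

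AMD1 was higher and SRM and SAT1 were lower in the hibernating bears compared to the active ones. The other 7 genes were not called. These 3 of 10 genes (30%) compared with 40.8% of all genes tested, 19.6% higher and 21.2% lower, so the share called was not above that of the transcriptome. The median log2 fold change of the 10 genes was −0.13, against −0.01 over all genes tested. The same 3 genes also met the stricter limits of the study, an adjusted p below 0.01 with a fold change above 1.3 or below 0.77, as did 25.7% of all genes. They were also the 3 genes whose winter and summer libraries did not overlap, in 1 case upward and in 2 downward, where 9.12% and 8.21% of all genes did so.

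**Figure D1:**
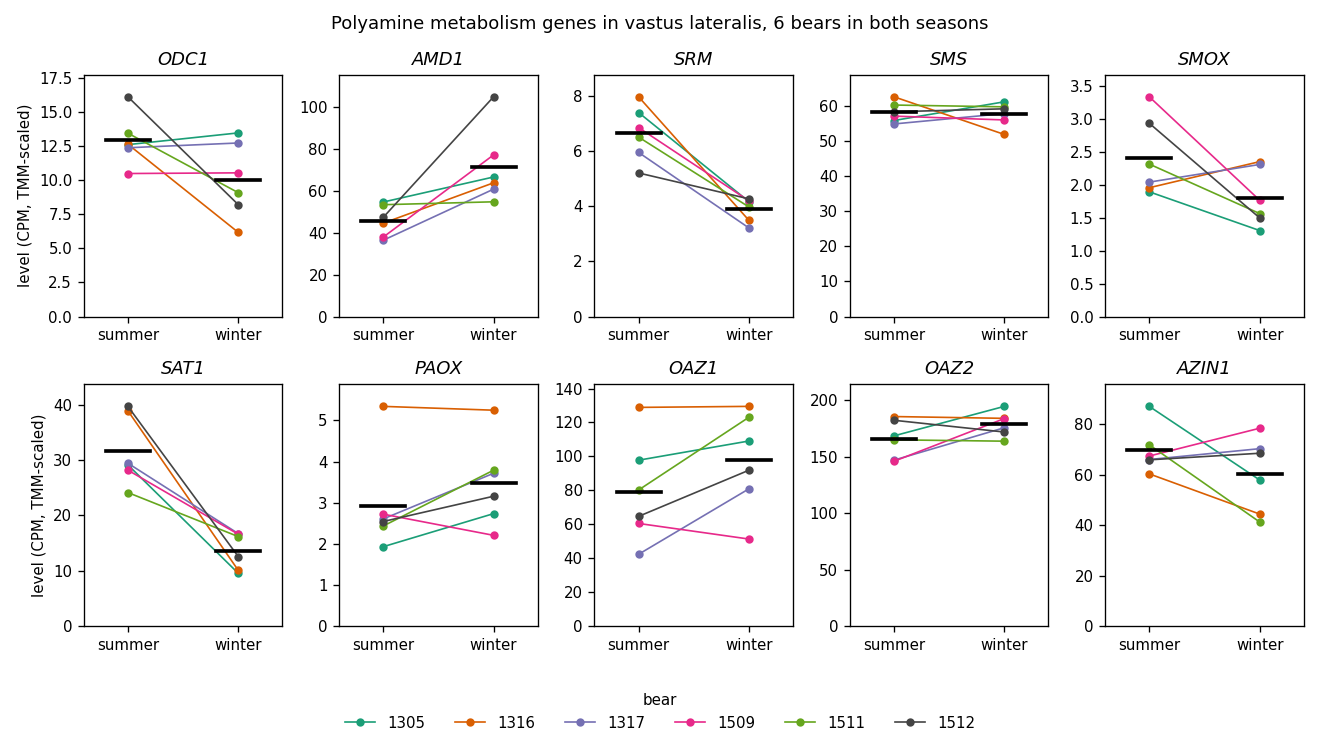
Level of each of the 10 genes in summer and winter (vertical axis, CPM after TMM scaling, starting at 0). Each point is a library, each line joins both libraries of a bear, and black bars are season means. On this scale, all 6 lines rise for AMD1 and fall for SRM and SAT1, while the SMS lines stay between 51.8 and 62.5 CPM.

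The enzymes of synthesis did not move together. AMD1, which makes the aminopropyl donor, was at 36.5 to 54.8 CPM in summer (median 46.0) and at 54.9 to 105 CPM in winter (median 65.4). The seasons were thus separated by only a narrow margin. With library totals in place of TMM they overlapped, with 53.0 CPM in the lowest winter library and 55.3 CPM in the highest summer library. Both of these libraries were of bear 1511, in which AMD1 was thus lower in winter on that scale. AMD1 rose 1.54-fold (95% interval 1.23 to 1.94, adjusted p = 0.00704). With TMM, its log2 difference was positive in 6 of 6 bears, as for 18.4% of all genes. The difference was uneven, from 0.04 in bear 1511 and 0.29 in bear 1305 to 1.02 in bear 1509 and 1.15 in bear 1512. The call held whichever bear was left out, with log2 fold changes of 0.52 to 0.75.

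SRM, which makes spermidine from putrescine, was a low-count gene, with 133 to 203 reads per library in summer and 57 to 131 in winter. Its level was 5.20 to 7.97 CPM in summer (median 6.68) and 3.21 to 4.27 CPM in winter (median 4.07), without overlap. SRM fell to 0.588 of its summer level (95% interval 0.463 to 0.745, adjusted p = 0.00290). The decrease was found in 6 of 6 bears, as for 19.0% of all genes, with log2 differences from −1.17 in bear 1316 to −0.28 in bear 1512.

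SMS, which makes spermine from spermidine, had the smallest spread within a season among the 10 genes, on the log2 scale. It lay at 58.1 ± 2.88 CPM in summer and 57.5 ± 3.32 CPM in winter (SD, n = 6 bears). Its winter/summer ratio of 0.991 had a 95% interval of 0.856 to 1.15 (adjusted p = 0.922), with 3 bears higher and 3 lower.

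ODC1, the first enzyme of the route, was at 10.5 to 16.1 CPM in summer (median 12.6) and at 6.17 to 13.5 CPM in winter (median 9.81), with overlapping seasons. It was not called, at a winter/summer ratio of 0.757 (95% interval 0.574 to 0.998, unadjusted p = 0.0487 in edgeR, adjusted p = 0.0993). The difference varied from bear to bear. With a single library per bear in each season, a bear's own response cannot be told apart from variation between libraries. The log2 difference was −1.02 in bear 1316, −0.97 in bear 1512 and −0.56 in bear 1511. In bears 1305, 1317 and 1509 it was 0.10, 0.04 and 0.01. Over the alternative settings its adjusted p lay between 0.0509 and 0.280.

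**Figure D2:**
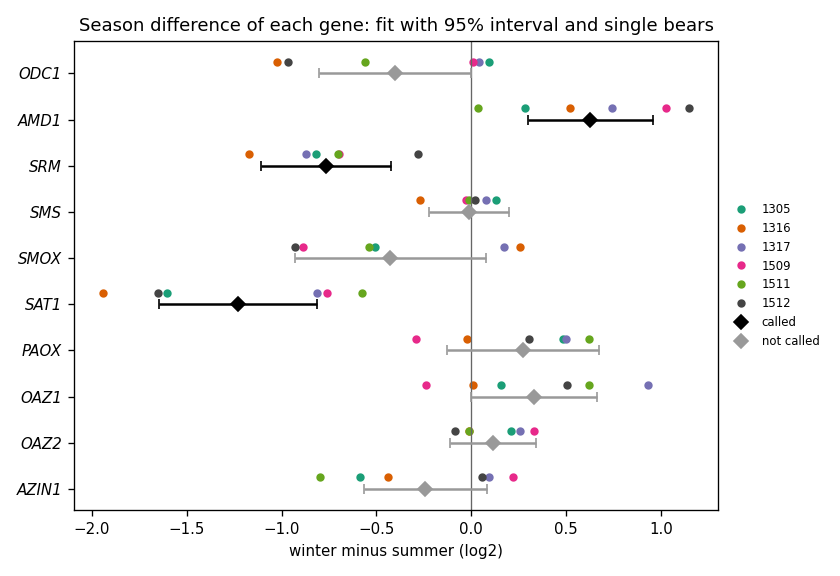
Winter minus summer difference on the log2 scale (horizontal axis) for each gene. Diamonds with bars are the edgeR estimate and its 95% interval, black where the gene was called, and coloured points are single bears. The intervals of AMD1, SRM and SAT1 lie clear of 0, that of ODC1 ends next to 0 and that of OAZ1 starts next to 0. The bears of ODC1 lie near 0 or at −0.56 and lower.

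Among the genes of breakdown, SAT1 stood out. It encodes the acetyltransferase that starts polyamine catabolism and export. SAT1 was at 24.1 to 39.7 CPM in summer (median 29.3) and at 9.55 to 16.7 CPM in winter (median 14.4), so that its highest winter library lay below its lowest summer library. SAT1 fell to 0.427 of its summer level (95% interval 0.320 to 0.569, adjusted p = 0.000610), and 7.99% of all genes tested had a smaller p. The fall was found in 6 of 6 bears. It was deepest in bears 1316, 1512 and 1305, with log2 differences of −1.94, −1.65 and −1.60, and shallower in bears 1317, 1509 and 1511, at −0.81, −0.76 and −0.57. Leaving out single bears moved the log2 fold change between −1.36 and −1.08, with the call held each time.

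SAT1 is also expressed in cells other than muscle fibres, and in a biopsy fewer cells of a type cannot be told apart from less RNA per cell. The 6 macrophage markers summed to 52.7 to 84.1 CPM in summer and 22.2 to 53.0 CPM in winter, and 4 of 6 were lower. Of the 5 endothelial markers 4 were lower, with sums of 577 to 916 CPM in summer and 381 to 449 CPM in winter. Of the 6 fibroblast markers 5 were lower, with sums of 4176 to 11270 and 269 to 1623 CPM. The collagen genes COL1A1, COL1A2 and COL3A1 fell most, at log2 fold changes of −5.17, −4.13 and −5.08. LUM stood at −2.13 and DCN at −0.91, and PDGFRA was not called (−0.46, adjusted p = 0.0778). Of the 6 adipocyte markers 1 was lower, with sums of 480 to 1583 CPM in summer and 315 to 776 CPM in winter. This was FABP4 (log2 fold change −0.84, adjusted p = 0.0136), which alone was at 263 to 889 CPM in summer. ADIPOQ (0.001), PLIN1 (0.22), LEP (2.55), CIDEC (−1.07) and PLIN4 (−0.37) were not called. Of the 4 smooth muscle markers 2 were lower, with sums of 100.4 to 159 CPM and 66.3 to 131.5 CPM. Of the 8 muscle fibre markers, ACTA1 (log2 fold change −0.91, adjusted p = 0.0152) and MB (−1.02, adjusted p = 0.000660) were lower and TTN (0.65, adjusted p = 0.00675) was higher. Of the 4 Schwann cell markers 1 was lower, and neither of the 2 erythroid markers tested was called. None of these markers was at 0 in all libraries. Their part in the decrease of SAT1, or of SRM, was not tested.

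The 3 genes whose log2 CPM followed SAT1 most closely over the 12 libraries, among 10344 named genes, were RPIA (Pearson r = 0.968), NUBPL (0.958) and LYRM1 (0.956). RPIA encodes an enzyme of the pentose phosphate pathway, and NUBPL is an assembly factor of respiratory complex I. Once the season means were removed, the correlations with SAT1 were 0.916, 0.761 and 0.789. The 3 genes were picked for high correlation in these same libraries, so the values after removal of the season means are biased upward too. All are descriptions over libraries that share bears and seasons.

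PAOX, the oxidase that acts after SAT1, had 40 to 125 reads per library. It was at 1.93 to 5.34 CPM in summer (median 2.57) and 2.21 to 5.25 CPM in winter (median 3.44) and was not called (winter/summer ratio 1.21, 95% interval 0.915 to 1.595, adjusted p = 0.253). Bear 1316 held the highest PAOX level in both seasons, 5.34 and 5.25 CPM.

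SMOX, the spermine oxidase, was also scarce, with 26 to 76 reads per library. Its level was 1.89 to 3.34 CPM in summer (median 2.18) and 1.31 to 2.35 CPM in winter (median 1.67), a ratio of 0.744 (95% interval 0.524 to 1.06, adjusted p = 0.161). The log2 differences of 4 of the 6 bears lay below 0, at −0.93 to −0.51, and those of bears 1316 and 1317 above it, at 0.26 and 0.17. At these read numbers, a decrease to the lower bound of the interval or no change could not be separated.

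The genes that set the stability of ornithine decarboxylase were not called. OAZ1 was at 42.3 to 129 CPM in summer (median 72.4) and 51.3 to 130 CPM in winter (median 100.5). OAZ1 had a winter/summer ratio of 1.26 (95% interval 1.00 to 1.58, unadjusted p = 0.0501 in edgeR, adjusted p = 0.101). It was higher in 5 of 6 bears, from 0.01 in bear 1316 to 0.93 in bear 1317 on the log2 scale, and stood at −0.24 in bear 1509. Without bear 1509, the only bear with a decrease, OAZ1 was called higher (log2 fold change 0.45, adjusted p = 0.0267). Without any other single bear OAZ1 was not called, at adjusted p from 0.0836 to 0.266. Without the bear as a replicate block its adjusted p was 0.370.

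OAZ2, the second antizyme, was at 146 to 186 CPM in summer (median 167) and at 164 to 195 CPM in winter (median 180). Its ratio of 1.08 had a 95% interval of 0.925 to 1.27 (adjusted p = 0.397), with 3 bears higher and 3 lower. AZIN1, the inhibitor of both, was at 60.3 to 87.0 CPM in summer (median 66.6) and 41.2 to 78.3 CPM in winter (median 63.1). Its ratio was 0.845 (95% interval 0.675 to 1.06, adjusted p = 0.211). AZIN1 was lower in bears 1511, 1305 and 1316, at log2 differences of −0.80, −0.59 and −0.44, and between 0.06 and 0.22 in the other bears.

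Differences between bears that persisted over both seasons were also examined, by a test of the bear terms in the same fit that was added after the values were seen. At an adjusted p below 0.05, 0 of 10 genes differed between bears in edgeR, where 0.688% of all genes did. At an unadjusted p below 0.05, 2 of 10 did, against 11.7% of all genes. These were OAZ1 (adjusted p = 0.167), called without the filter on low counts (adjusted p = 0.0482), and PAOX (adjusted p = 0.326). OAZ1 was highest in bear 1316 in both seasons, at 129 and 130 CPM. It was lowest in bear 1317 in summer, at 42.3 CPM, and in bear 1509 in winter, at 51.3 CPM.

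To compare genes of linked function without any scaling between libraries, the ratio of the reads of 2 genes within each library was taken for 6 pairs, chosen by role after the values were seen. The AMD1/ODC1 ratio, of the aminopropyl supply to the first enzyme, was higher in winter in 6 of 6 bears, by 1.03 ± 0.70 on the log2 scale (SD, n = 6 bears). The SRM/SMS ratio of the synthases was lower in 6 of 6, at −0.76 ± 0.25, and the SAT1/PAOX ratio of the successive catabolic steps was lower in 6 of 6, at −1.50 ± 0.63. Each of these 3 gave p = 0.0312 in a two-sided exact permutation test within bears, the smallest that 6 bears allow. After adjustment over the 6 pairs this was 0.0624, which is not below 0.05. Each of these 3 pairs holds 1 of the called genes AMD1, SRM and SAT1, so its shift is not separate evidence. Because the pairs were chosen after the values were seen, the p-values of all 6 are only descriptive.

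The other pairs varied more than they shifted. SMS/SMOX was at 0.41 ± 0.60 (higher in 4 of 6 bears, exact permutation p = 0.156, adjusted 0.187). AZIN1/OAZ1 was at −0.58 ± 0.62 (lower in 5 of 6, exact permutation p = 0.125, adjusted 0.187). OAZ1/OAZ2 was at 0.22 ± 0.50 (higher in 4 of 6, exact permutation p = 0.281, adjusted 0.281). Bear 1509 was the exception of AZIN1/OAZ1, at 0.46.

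**Figure D3:**
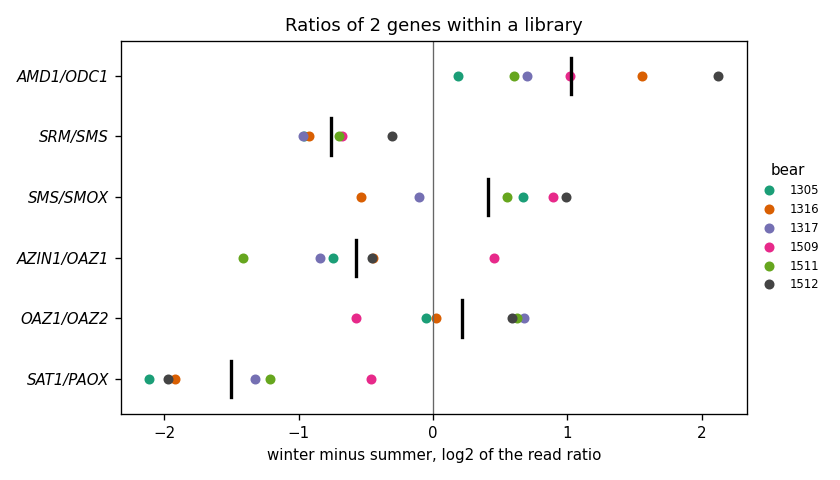
Winter minus summer difference of the log2 ratio of 2 genes' reads within a library (horizontal axis) for 6 pairs. Points are bears and black bars their mean. All 6 bears lie above 0 for AMD1/ODC1 and below 0 for SRM/SMS and SAT1/PAOX.

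Genes of neighbouring pathways were read from lists of 37 genes, of which 27 were tested. In winter 5 were higher and 5 were lower, 37% of those tested against 40.8% of all genes, with a median log2 fold change of −0.07.

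For precursor supply, 4 of 8 listed genes were tested. OAT, the mitochondrial aminotransferase that links ornithine with glutamate and proline, fell from 82.8 to 112 CPM in summer to 44.8 to 87.3 CPM in winter (log2 fold change −0.75, standard error 0.12, adjusted p = 0.000703), lower in 6 of 6 bears. MAT2B, the regulatory subunit of the S-adenosylmethionine synthetase in muscle, rose by 0.32 (standard error 0.10, adjusted p = 0.0277) in 6 of 6. Its call was lost with library totals (adjusted p = 0.158), without the filter (0.0612) and without bear 1305 (0.0881) or bear 1316 (0.0696). The catalytic subunit gene MAT2A stood at −0.23 (adjusted p = 0.181), and AHCY, which clears S-adenosylhomocysteine, at 0.04 (adjusted p = 0.807). ARG1, AGMAT and MAT1A had at most 7, 4 and 1 reads in a library and were not tested.

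Methylthioadenosine is the by-product of both aminopropyl transfers and is recycled to methionine. All 6 listed genes of this salvage route were tested, and 3 were lower (50%), where 21.2% of all genes tested were lower. With 6 genes, this share was not tested. GOT1, an aspartate aminotransferase that can serve the last, transamination step and has other roles in amino acid metabolism, fell from 518 to 631 CPM to 127 to 221 CPM (log2 fold change −1.80, standard error 0.14, adjusted p = 1.53e-05). ADI1, the dioxygenase before it, fell by 1.00 on the log2 scale (standard error 0.20, adjusted p = 0.00243), and both were lower in 6 of 6 bears. APIP, the dehydratase, fell in 5 of 6 bears (log2 fold change −0.56, standard error 0.20, adjusted p = 0.0457). Its call was lost without any one of the bears 1305, 1316, 1317, 1509 and 1511, at adjusted p = 0.112, 0.106, 0.0531, 0.0668 and 0.0682. MTAP, which opens the route, was at −0.08 (adjusted p = 0.614), ENOPH1 at −0.07 (adjusted p = 0.693) and MRI1 at 0.48 (adjusted p = 0.131, and 0.0318 without bear 1509).

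Spermidine also donates the group for hypusine, the modified lysine of the translation factor eIF5A. DHPS, the enzyme that transfers it, was at 10.8 to 16.7 CPM in summer and 13.3 to 23.2 CPM in winter and rose by 0.59 on the log2 scale (standard error 0.14, adjusted p = 0.00676), in 6 of 6 bears. The hydroxylase DOHH, with 6 to 38 reads per library, stood at −0.70 (standard error 0.34, adjusted p = 0.120). The substrate genes EIF5A, at 0.19 (adjusted p = 0.175), and EIF5A2, at 0.29 (adjusted p = 0.0909), were not called, although EIF5A2 was without bear 1511 (adjusted p = 0.0478).

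SAT2, the paralogue of SAT1 that acts mainly on another substrate, thialysine, moved in the opposite direction. It was at 4.92 to 11.1 CPM in summer and 9.88 to 17.1 CPM in winter and rose by 1.22 on the log2 scale (standard error 0.15, adjusted p = 0.000188), in 6 of 6 bears. SATL1 had 0 reads in every library and OAZ3, the testis antizyme, at most 2. AZIN2, a second antizyme inhibitor, was at −0.42 (standard error 0.21, adjusted p = 0.139).

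Of the 9 genes listed for polyamine transport, 6 were tested and 1 was called (16.7%, against 40.8% of all genes). SLC22A3, an organic cation transporter that carries polyamines among other cations, fell from 18.0 to 45.0 CPM in summer to 10.7 to 16.1 CPM (log2 fold change −1.24, standard error 0.18, adjusted p = 0.000448). Its seasons did not overlap, as for 8.21% of all genes in this direction, and it was lower in 6 of 6 bears. The lysosomal and endosomal polyamine pumps ATP13A2 and ATP13A3 stood at −0.44 (adjusted p = 0.157) and −0.01 (adjusted p = 0.951), the vesicular transporter SLC18B1 at −0.11 (adjusted p = 0.503), and SLC3A2 at 0.08 (adjusted p = 0.662). ATP13A5, with at most 5 reads in a library, was at −0.73 (standard error 0.69, adjusted p = 0.419).

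Of the 6 genes listed as regulators, 5 were tested, and 2 of them, MXI1 and the cell cycle inhibitor CDKN1A, were higher (40%). Over all genes tested, 19.6% were higher. An action of the listed genes on the polyamine genes was not tested. MYC, a direct activator of ODC1, was at 3.39 to 9.25 CPM in summer and 2.90 to 11.1 CPM in winter and was not called (log2 fold change 0.10, standard error 0.21, adjusted p = 0.743). MXI1, a member of the family that opposes MYC, rose by 0.63 (standard error 0.13, adjusted p = 0.00366) in 6 of 6 bears. CDKN1A, the cell cycle inhibitor p21, rose by 0.70 (standard error 0.21, adjusted p = 0.0223) in 5 of 6 bears. This call was lost without the replicate block (adjusted p = 0.0556), and the adjusted p was 0.0514, 0.0705, 0.0676 and 0.0715 without bear 1305, 1316, 1317 or 1512. NFE2L2 stood at −0.12 (adjusted p = 0.384) and MXD1 at 0.14 (adjusted p = 0.449).

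**Figure D4:**
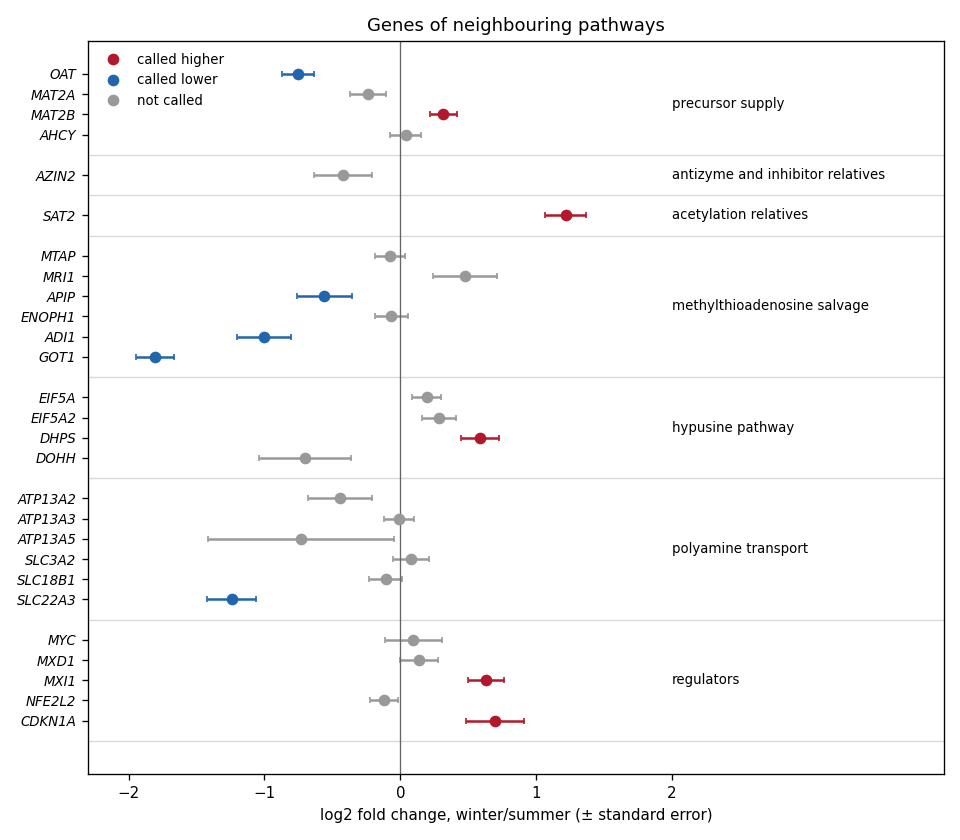
Log2 fold change, winter over summer, with its standard error (horizontal axis) for the 27 tested genes of neighbouring pathways, grouped by list. Red points were called higher, blue points lower and grey points were not called. GOT1 and SLC22A3 lie farthest to the left, at −1.80 and −1.24, and SAT2 farthest to the right at 1.22.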

How the data were processed

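Stranded mRNA libraries were aligned by the authors with TopHat2 2.1.1 to the assembly ASM358476v1, and reads mapped to the strand opposite to each gene, as the library kit requires, were counted with featureCounts 1.6.2. The authors deposited these raw counts without normalization.

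A gene needed 30 reads in total over the 12 libraries, the minimum of the study. Counts were scaled by TMM and fitted with glmQLFit and glmQLFTest of edgeR 4.0.16 in R 4.3.3, with season and bear as terms, since by the study's methods every bear gave a sample in each season. After the season means were subtracted, both libraries of a bear correlated at 0.0903 to 0.344, and libraries of different bears at 0.142 at most. The 95% intervals come from the same fit, and log2 CPM values used a prior count of 2. Alternatives were no replicate block, DESeq2 1.42.0, limma 3.58.1 (voom), RLE factors, library totals, other filters and each bear left out. The fits were tested on simulated data, which held no differences between bears and so could not check the bear block. The lowest chi-square per gene between libraries of a season was 39, so no library was a copy of another of its season. Libraries of different seasons were not compared in this way.

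The 10 genes and the lists were chosen with earlier results of these data known. By rule, all 10 genes were named, with the called genes of the related lists, the members of lists of 6 or fewer tested genes, and the 3 genes most correlated with the gene of smallest p. ARG2, MAX and SLC22A2 were not analysed here, and some genes of the lists are not reported here. Gene lengths and sequences of this assembly were not used here, so levels were not compared between genes. Per-sample columns outside the 12 libraries numbered 0.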

Additional observations from a re-analysis of the deposited data

Results flagged for a closer look

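In the summer libraries, PAOX lay at 2.44 log2 CPM in bear 1316 and at 1.01 to 1.49 in the other bears, a gap of 0.666 of the whole range, above Dixon's 95% critical value for 6 samples. It was the only such library in 20 groups examined, the 10 genes in each season, where chance flags about 1 group in 20.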

How the results depend on the processing

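Under the 13 alternatives, AMD1, SRM and SAT1 kept their direction and their call, with adjusted p of at most 0.0271, 0.0119 and 0.00365. Without the replicate block 1 of the 10 genes was called higher and 2 lower, the same numbers as with it, and the only related gene to lose its call was CDKN1A. Leaving out single bears gave 1 to 2 of the 10 genes higher, 2 in the case of bear 1509, and 3 to 6 related genes higher. The log2 fold change crossed 0 between −0.0554 and 0.0413 for SMS, −0.00592 and 0.0773 for AHCY, −0.138 and 0.0073 for ENOPH1, −0.0446 and 0.0505 for ATP13A3 and −0.0765 and 0.242 for MYC, none of which was called. With library totals AHCY stood at −0.0398 and SLC3A2 at −8.91e-05, and with filterByExpr ATP13A3 stood at 0.00192. Library totals lowered the share of calls that were higher from 48.1% to 39.8%. At the stricter limits of the study, 2115 of all genes were higher and 2325 lower, against 3392 and 3663 at an adjusted p below 0.05. Without the filter, 1 of the 10 genes, OAZ1, differed between bears. SRM, SMOX and PAOX rested on 26 to 203 reads per library, which limits what could be detected. Polyamine genes have processed copies in other mammals, and reads shared with copies were not tested.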
